A study of Homo sapiens with 6 samples.

Results

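Long intergenic noncoding RNAs (lincRNAs) were measured in BaF3-T315I cells, with and without the histone deacetylase (HDAC) inhibitor I13. The genes described here are those that the deposited table annotates as lincRNA and that were selected on a mean of at least 1 FPKM over all 6 samples, where FPKM counts the sequenced fragments of a transcript per unit of its length and of the library's size. There were 198 such genes among 1230 lincRNA rows (16.1%) and among 22413 genes in all. BaF3-T315I is a murine line, derived from the pro-B line BaF3 and stably transfected with BCR-ABL that carries the T315I mutation, so every sample, control or treated, holds the same transgene. The 3 control samples are labelled only as control, with no vehicle or exposure time, and the 3 I13 samples received 1.1 µM of I13 for 48 h. Nothing in the labels says that samples of a group came from separate cultures, so the p-values measure the spread between these samples, which may be technical.

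HDAC inhibitors raise histone acetylation, a mark of active chromatin, and many lincRNA promoters sit in open chromatin like those of coding genes. Well-known lincRNAs act in the nucleus: Neat1 is the RNA scaffold of paraspeckles and Malat1 is a component of nuclear speckles. Others are host transcripts whose introns or exons are processed into snoRNAs or microRNAs, and the spliced remainder is what a poly(A)-selected library measures. Most lincRNAs have no known function and are named by number, and 92 of the 198 have a Gm number, 54 a Rik name, 29 a clone name and 23 another name.

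The library totals recovered from the FPKM values lay between 16762119 and 17722950 fragments, and 99.45% to 99.48% of each total fell on listed genes. The cells expressed the receptor genes of the parental line, Csf2rb at 239 to 463 FPKM in controls and 448 to 838 FPKM after I13, and both Csf2rb and its paralog Csf2rb2 were called higher once the replicate number was made a block in the fit. Cd79a, a B-cell receptor component, was at 14.1 to 27.5 FPKM, whereas the B-lineage genes Ebf1, Pax5, Vpreb1, Igll1 and Il7r were at or below 0.107 FPKM in every sample. All 8 T cell markers in the table and Col1a1, the one fibroblast or epithelial marker in it, were under 1 FPKM in every sample. The summed FPKM of 6 erythroid markers was 10.7 to 16.05 in controls and 20.9 to 28.6 after I13, with 2 of them under 1 FPKM throughout, and Hba-a1 was called higher with the block. The part of this difference in the lincRNA values was not tested.

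Gm12606 was the lincRNA with the largest change. In the controls, taken in the order of their replicate numbers 1, 2 and 3 as in all lists of values here, it stood at 0.678, 0.597 and 0.895 FPKM, and after I13 it stood at 4.18, 5.87 and 5.75 FPKM. All I13 samples lay above all controls, and the lowest I13 value was several times the highest control value. The means were 0.723 ± 0.154 FPKM (SD, n = 3) and 5.27 ± 0.945 FPKM (SD, n = 3), a 7.28-fold difference. Gm12606 (ENSMUSG00000087659, with a length of 1331 bases recovered from the FPKM values) has no described function. Its values rested on 16, 14 and 21 fragments in the controls and on 98, 131 and 134 fragments after I13.

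The values of all 12163 genes with a mean of at least 0.5 FPKM were compared with limma on log2(FPKM + 0.1), with p-values adjusted by the Benjamini-Hochberg method. Calls needed both an adjusted p under 0.05 and a log2 fold change of 0.58 or more in either direction. Adding 0.1 makes the log2 fold change of low genes smaller than that of the FPKM itself. Gm12606 had a log2 fold change of 2.70 ± 0.21 (SE) and an adjusted p of 0.0301, and it ranked at 11 among all genes tested by log2 fold change. It was picked for its rise in earlier results of the same samples, so this test is a description and not independent evidence. Gm12606 was the only lincRNA of the 198 that was called, and no lincRNA was called lower, against 0.0411% of all genes tested called in either direction. At an unadjusted p below 0.05, 23 lincRNAs were lower (11.6%, against 10.8% of all genes tested) and 18 were higher (9.09%, against 7.79%). A count model (limma-voom) on the recovered fragments also called Gm12606 higher and no lincRNA lower, and called 0.0493% of all genes. Under 10 other settings with all samples kept, its log2 fold change lay between 1.85 and 2.85 and its adjusted p was at most 0.0484. Without any single sample the log2 fold change lay between 2.59 and 2.86, but the adjusted p was between 0.0580 and 0.252 and the call was lost each time.

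Samples with the same replicate number varied together in both groups. The pairing was adopted because of this pattern in these same values, so the p-values with the block are not independent of that choice. With the replicate number as a block in the limma fit, 5 lincRNAs were called higher and 4 were called lower. Of all genes tested, 1.36% were called higher and 0.526% lower with the block, together 1.89%, and the 9 lincRNAs were 4.55% of the 198. The 5 that rose were Gm12606, Gm44659, Neat1, Gm33370 and Gm5532, and the 4 that fell were Platr17, Gm13710, C330006A16Rik and Gm43153. With no limit on the fold change, 10 lincRNAs had an adjusted p below 0.05 with the block, against 2.99% of all genes tested, the tenth being Platr27 with a log2 fold change of -0.50. Each of these 8 further calls rests on the block, which leaves only 2 residual degrees of freedom per gene. Leaving out both samples of replicate number 1 left Gm12606 and Neat1 called. Leaving out those of number 2 or of number 3 left none of the 9.

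**Figure D1:**
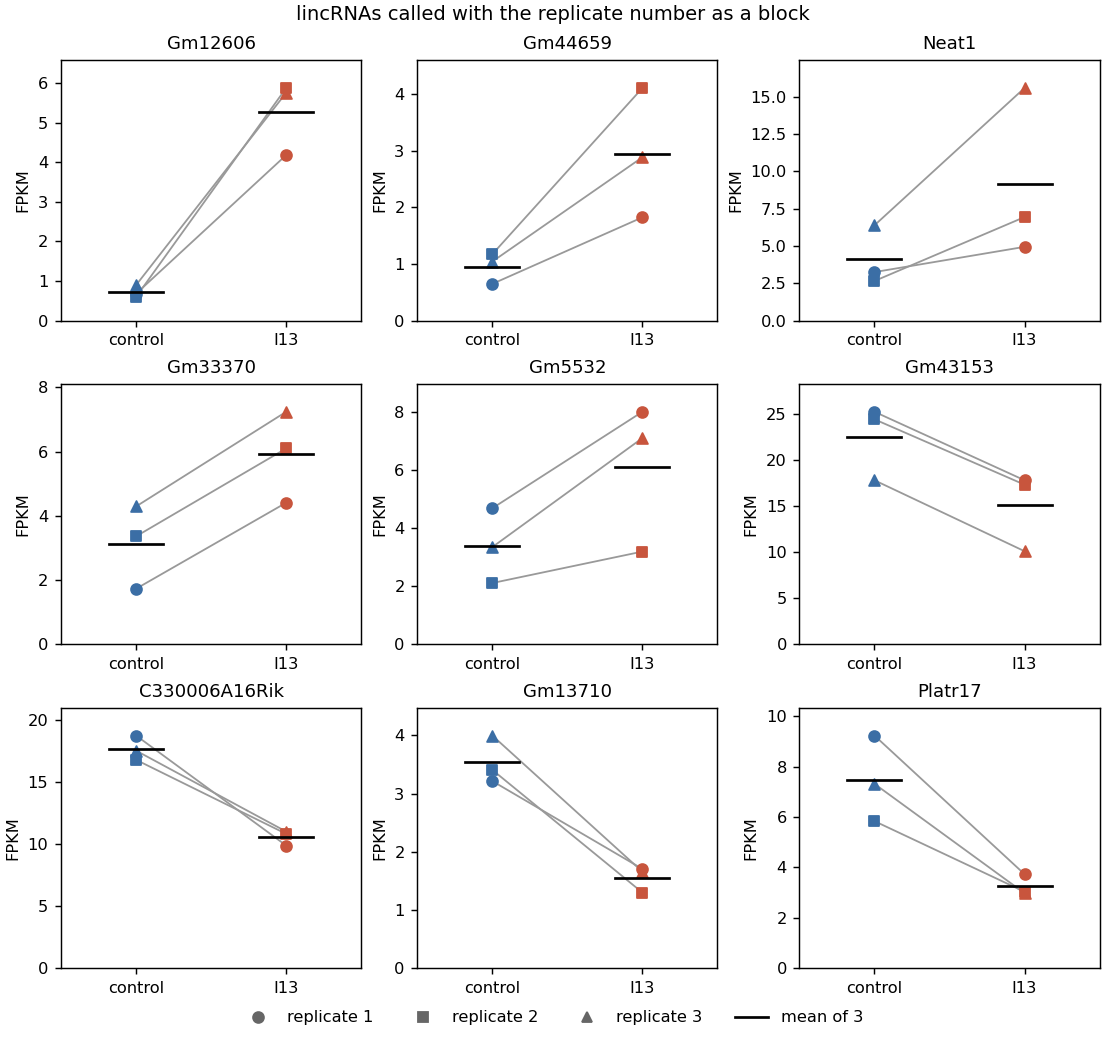
FPKM (linear axes that start at 0, 1 panel per gene) of the 9 lincRNAs called with the replicate block in the 3 control and 3 I13 samples, with grey lines joining samples of the same replicate number and black bars for the mean of 3 samples. Every line rises for Gm12606, Gm44659, Neat1, Gm33370 and Gm5532 and falls for the other 4 genes, while the groups overlap for Neat1 and Gm5532.

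The gene Neat1, which encodes the paraspeckle scaffold, lay higher with I13 than without it in all 3 pairs. The values are per gene and come from poly(A)-selected libraries. They do not tell different transcripts of Neat1 or Malat1 apart, so a change of the scaffold transcript itself was not tested. Only the gene-level values of Neat1 are described next. Its levels were 3.25, 2.65 and 6.38 FPKM in the controls and 4.94, 6.94 and 15.6 FPKM after I13. Replicate 3 was the highest sample of both groups, and control 3 lay above I13 sample 1, so the groups overlapped. The log2 fold change was 1.07 ± 0.47 (SE), with an adjusted p of 0.275 without the block and 0.0459 with it. Without I13 sample 3 the log2 fold change was 0.61. At 20771 bases Neat1 is the longest of the 198, and 4504 fragments in the controls and 9895 after I13 stand behind these values, so counting error was small beside the spread between samples. Malat1, the nuclear speckle RNA, measured 26.6, 35.8 and 55.0 FPKM in the controls and 40.1, 60.7 and 58.8 FPKM after I13. It was also higher in each pair, with a log2 fold change of 0.48 ± 0.28 (SE), but it was not called (adjusted p of 0.390, and 0.0975 with the block).

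The other 3 lincRNAs called higher with the block carry only numbers. Gm44659 (ENSMUSG00000109214) measured 0.647, 1.17 and 1.04 FPKM in the controls and 1.82, 4.10 and 2.88 FPKM after I13. It reached the mean of 1 FPKM through its I13 samples, since its control mean was lower. The groups did not overlap, although only 22 control fragments and 66 I13 fragments were counted in all. Its log2 fold change was 1.49 ± 0.34 (SE), with an adjusted p of 0.114 and, with the block, of 0.0377. Gm33370 (ENSMUSG00000105283) measured 1.73, 3.36 and 4.29 FPKM in the controls and 4.41, 6.10 and 7.24 FPKM after I13. Its groups were separated by a narrow margin, between control 3 with 37 fragments and I13 sample 1 with 38. The log2 fold change was 0.96 ± 0.34 (SE), and 0.60 without control 1, with an adjusted p of 0.202 and, with the block, of 0.0447. Gm5532 (ENSMUSG00000073535) measured 4.68, 2.11 and 3.34 FPKM in the controls and 7.9996, 3.19 and 7.09 FPKM after I13. Its replicate 2 was the lowest sample of each group, and the groups overlapped. The log2 fold change was 0.80 ± 0.40 (SE), with an adjusted p of 0.328 and, with the block, of 0.0471. It was 0.51 without control 2 and 1.20 without I13 sample 2.

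Among the lincRNAs called lower with the block, C330006A16Rik (ENSMUSG00000087679) varied least between samples of a group. It measured 18.8, 16.8 and 17.6 FPKM in the controls and 9.90, 10.8 and 11.02 FPKM after I13. The groups were far apart, and 2330 control fragments and 1363 I13 fragments were counted. Its log2 fold change was -0.74 ± 0.094 (SE), with an adjusted p of 0.0860 and, with the block, of 0.0384. Platr17 (ENSMUSG00000092349), one of the transcripts named as pluripotency associated, measured 9.23, 5.83 and 7.31 FPKM in the controls and 3.73, 3.03 and 2.97 FPKM after I13. The lowest control was well above the highest I13 sample, and the log2 fold change was -1.16 ± 0.19 (SE), with an adjusted p of 0.0860 and, with the block, of 0.0313. Gm13710 (ENSMUSG00000087362) measured 3.22, 3.41 and 3.999 FPKM in the controls and 1.71, 1.30 and 1.66 FPKM after I13. Again no sample of the groups overlapped, with a log2 fold change of -1.14 ± 0.17 (SE), an adjusted p of 0.0860 and, with the block, of 0.0384.

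Gm43153 (ENSMUSG00000106674) was the fourth. It measured 25.3, 24.5 and 17.840 FPKM in the controls and 17.839, 17.4 and 10.1 FPKM after I13. Replicate 3 was the lowest in both groups, and control 3 and I13 sample 1 differed only in the last digit, so the absence of overlap was nominal. Its log2 fold change was -0.60 ± 0.24 (SE), with an adjusted p of 0.249 and, with the block, of 0.0451. Without I13 sample 3 the log2 fold change was -0.34, under the size needed for a call. With voom and the block on the recovered fragments, 18 lincRNAs (9.09%) were called, among them 7 of these 9, against 4.14% of all genes. Gm33370 and Gm43153 were the ones not called there, with adjusted p of 0.0536 and 0.0623.

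Several other lincRNAs showed differences as large without a call in either limma fit on FPKM. Of the 7 that follow, Gm42749, Gm26885, D730003I15Rik, Gm44737 and 5730460C07Rik were among the 18 called with voom and the block, and 4930568A12Rik and Gm13073 were not. All 7 were picked among lincRNAs whose groups did not overlap, so the absence of overlap is not a result here. Gm42749 measured 1.598, 0.792 and 0.951 FPKM in the controls and 3.01, 2.83 and 1.87 FPKM after I13, with a log2 fold change of 1.17 ± 0.30 (SE) and an adjusted p of 0.0582 with the block. Gm26885 and 4930568A12Rik had log2 fold changes of 0.99 ± 0.31 and 1.37 ± 0.61 (SE), and their groups did not overlap, but control 2 of 4930568A12Rik stood apart at 0.175 FPKM against 0.913 and 1.49 FPKM in the other controls, and without it the log2 fold change was 0.63. On the lower side, Gm13073 measured 2.21, 3.15 and 1.40 FPKM in the controls and 0.234, 0.859 and 0.823 FPKM after I13. This was the largest lower value among the 198, at -1.75 ± 0.48 (SE) on the log2 scale, from 58 fragments in the controls and 16 after I13, and it was not called (adjusted p of 0.141, and 0.0766 with the block). D730003I15Rik (-1.08 ± 0.31), Gm44737 (-0.96 ± 0.25) and 5730460C07Rik (-0.90 ± 0.35, all SE) also had groups that did not overlap and adjusted p with the block of 0.0744, 0.0838 and 0.0576. The log2 fold change of 5730460C07Rik varied with 1 sample, control 1, which stood at 19.8 FPKM against 9.43 and 8.60 FPKM in the other controls, and it was -0.53 without that sample.

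The most abundant lincRNA, AL513022.1, measured 205, 86.1 and 160 FPKM in the controls and 297, 144 and 168 FPKM after I13. It was higher after I13 in each pair, but the groups overlapped widely and the log2 fold change of 0.45 ± 0.37 (SE) was not called (adjusted p of 0.547, and 0.106 with the block). This gene alone gave 11.8% of the summed mean FPKM of the 198, and the 6 most abundant gave 37.1%. The next were Gm45836 with group means of 119 ± 15.4 and 113 ± 17.6 FPKM in controls and I13 samples (SD, n = 3 each), Gm28187 with 91.3 ± 14.2 and 95.3 ± 7.70 FPKM, and Gm16194 with 75.1 ± 13.002 and 74.8 ± 4.002 FPKM. The differences of these 3 genes were smaller than the spread between replicates. 4930461G14Rik was lower in each pair, at 53.7 ± 3.95 and 47.3 ± 2.99 FPKM, and was not called (adjusted p of 0.353, and 0.137 with the block).

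Summed over the 198 lincRNAs, the level did not move beyond the spread of the samples. The sums were 1513, 1378 and 1555 FPKM in the controls and 1618, 1529 and 1421 FPKM after I13, between 0.392% and 0.458% of each sample's total FPKM. The ranges overlapped, with means of 1482 ± 92.5 and 1523 ± 98.8 FPKM (SD, n = 3 each). A two-sided exact permutation test gave p = 0.6, where 3 samples against 3 cannot give less than 0.1. Without AL513022.1 the log2 ratio of I13 to control went from 0.039 to -0.013 (exact permutation p = 0.9).

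The lincRNAs with a published name mostly gave small log2 fold changes. Mir142hg, the host of the blood cell microRNA miR-142, and Mir17hg, the host of the miR-17-92 cluster, had log2 fold changes of 0.08 ± 0.17 and 0.16 ± 0.32 (SE). Mir155hg, the host of miR-155, measured 2.20, 0.950 and 1.23 FPKM in the controls and 2.22, 0.4996 and 0.877 FPKM after I13. Its replicate 1 was the highest in both groups by a wide margin, and the log2 fold change of -0.41 ± 0.53 (SE) was not called. Trp53cor1 (lincRNA-p21), a p53-induced transcript, measured 1.97 ± 0.428 and 2.00 ± 0.563 FPKM (SD, n = 3 each), which is 0.01 ± 0.25 (SE) as a log2 fold change. Pvt1, the neighbour of Myc, and Ftx, a transcript of the X-inactivation centre, had 0.26 ± 0.30 and 0.23 ± 0.21, and Bvht (Braveheart), known from cardiac commitment, had 0.13 ± 0.16. 1700020I14Rik (Cyrano), which promotes the decay of miR-7, had 0.07 ± 0.13, and 5031425E22Rik had -0.22 ± 0.15. Of the list of characterised long noncoding RNAs, 20 genes were tested, 11 of them among the 198. Of these 20, 14 were higher and 6 lower, with a median log2 fold change of 0.08, against -0.01 for all genes tested. The 20 include 9530068E07Rik and 2810474O19Rik, which the deposited annotation gives as protein-coding, with log2 fold changes of 0.06 and -0.16. Neat1 was the only one of the 20 with an adjusted p below 0.05, and only with the block.

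The snoRNA host genes among the 198 were Snhg6, Snhg12, Snhg20 and Epb41l4aos, with log2 fold changes of 0.13 ± 0.19, -0.02 ± 0.26, -0.02 ± 0.26 and -0.02 ± 0.16 (SE). With FPKM rescaled to TPM, which moved the median of all genes tested from -0.01 to 0.02, the last 3 were 0.007, 0.012 and 0.014. Snhg6 measured 18.8, 23.4 and 16.4 FPKM in the controls and 23.5, 24.8 and 16.3 FPKM after I13, and Snhg12 measured 8.68, 9.87 and 5.17 FPKM and 7.47, 9.36 and 6.04 FPKM. In both genes replicate 2 was the highest and replicate 3 the lowest sample of either group. Of all 12 snoRNA hosts tested, lincRNA by annotation or not, 7 were higher and 5 lower after I13. None had an adjusted p below 0.05 in either fit (1 at an unadjusted p below 0.05). Replicate 2 was the highest of both groups in 8 of the 12, against 3160 of all 12163 genes tested. The lowest p belonged to Snhg8 and Snhg15, with log2 fold changes of -0.44 ± 0.12 and 0.27 ± 0.12 (SE). Snhg8 had an adjusted p of 0.137, and of 0.0505 with the block.

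**Figure D2:**
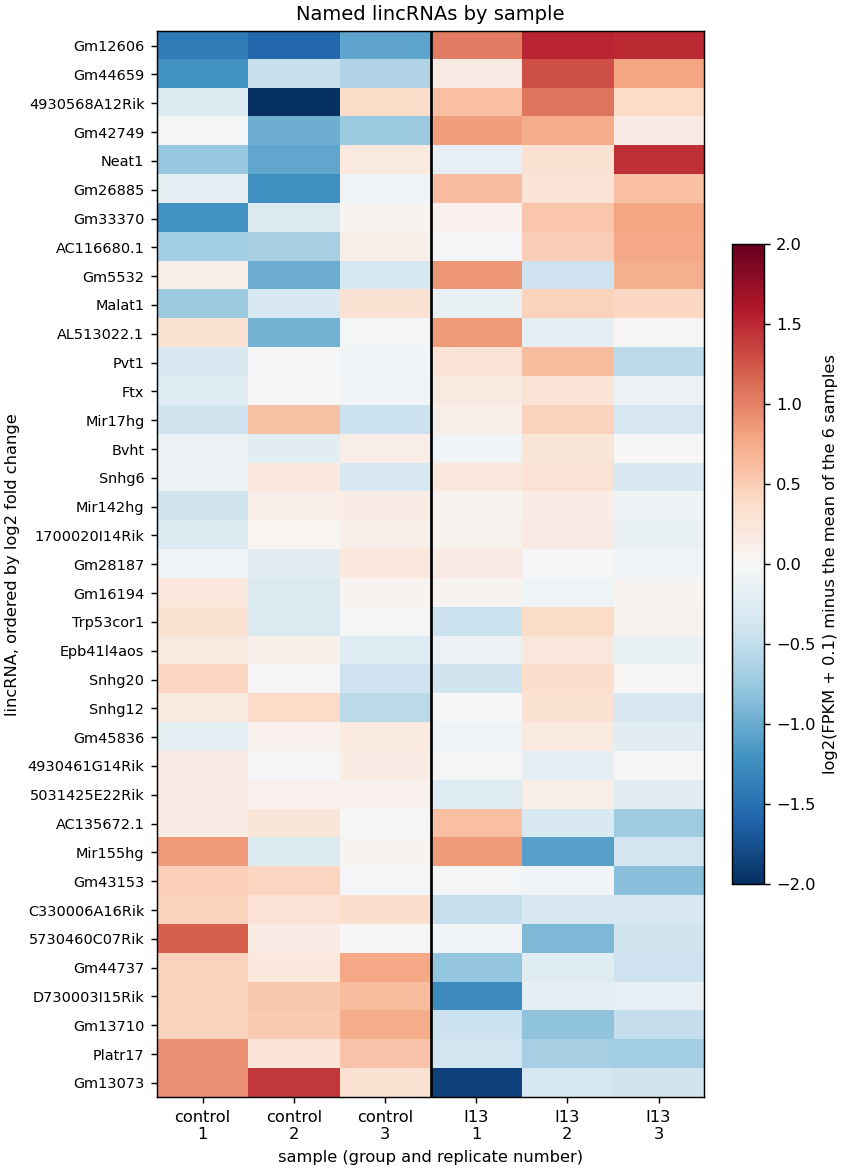
log2(FPKM + 0.1) minus the mean of the 6 samples (colour scale from -2 to 2, values beyond it drawn in the end colours) for the 37 named lincRNAs, in rows ordered by log2 fold change, with the samples by group and replicate number in columns. The upper and lower rows change colour at the line between control and I13, whereas rows such as Mir155hg, Mir17hg, Snhg6 and Snhg12 repeat the pattern of replicate numbers 1, 2 and 3 on both sides of it.

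Genes whose proteins bind, process or degrade lincRNAs showed small differences. Of 14 genes of paraspeckle proteins, 7 were higher and 7 lower with none at an adjusted p below 0.05 in either fit, and 3 at an unadjusted p below 0.05, a threshold that 18.6% of all genes tested passed. The lowest p were those of Rbm14, a paraspeckle protein needed for their assembly, at 23.3, 22.5 and 19.5 FPKM in controls and 17.2, 17.97 and 17.5 FPKM after I13, and of Nudt21 (log2 fold changes of -0.30 ± 0.098 and -0.40 ± 0.13, SE). Nudt21 is a subunit of the cleavage factor that helps set which poly(A) site is used. Of 25 genes of the nuclear exosome and its adaptors, which degrade many noncoding transcripts, 10 were higher and 15 lower, again with none at an adjusted p below 0.05 and 3 of the 25 at an unadjusted p below 0.05. Zcchc7, a subunit of the TRAMP adaptor, had a log2 fold change of 0.48 ± 0.18 and Exosc10, a nuclease of the complex, had -0.21 ± 0.079 (SE).

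Of 11 genes of the microprocessor and microRNA pathway 5 were higher and 6 lower, with none at an unadjusted p below 0.05 and none at an adjusted p below 0.05 with the block. The lowest p were those of Ddx17, at -0.34 ± 0.15, and Ago1, at -0.19 ± 0.092 (SE). Of 21 genes of RNA 3′ end processing 6 were higher and 15 lower, with a median log2 fold change of -0.09 and 4 at an unadjusted p below 0.05. Cpsf1, the large subunit of the cleavage and polyadenylation complex, measured 60.3, 62.1 and 57.6 FPKM in the controls and 43.2, 43.9 and 43.6 FPKM after I13. Its groups were far apart, and at a log2 fold change of -0.46 ± 0.077 (SE) its adjusted p was 0.0963 without the block and 0.0404 with it, below the fold needed for a call.

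The lincRNAs differed more between samples of one group than the coding genes of the same FPKM band did. In log2 units the median SD within groups was 0.348 for the 170 lincRNAs under 10 FPKM and 0.184 for the 4620 protein-coding genes from 1 to under 10 FPKM. Within this band the lincRNAs had the lower level, with a median of 2.04 against 4.58 FPKM. They were also shorter, with a median length of 1398.5 against 4946 bases, and rested on a median of 56.3 against 369 fragments per sample. The part of level, length and depth in the spread was not tested. The median absolute log2 fold change was larger too, 0.329 against 0.185. Over all 198, 41 lincRNAs (20.7%) differed by 0.58 or more on the log2 scale in either direction, against 9.41% of all genes tested. Of these 41, 17 were higher and 24 lower, whereas among all genes tested 739 were higher and 406 lower. With a pseudocount of 1 in place of 0.1 the lincRNAs split into 10 higher and 9 lower and all genes into 363 and 133.

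The share of lincRNAs at an unadjusted p below 0.05, or without overlap of the groups, was close to that of all genes, unlike the share called with the block given above. At an unadjusted p below 0.05 there were 41 lincRNAs (20.7%), 18 higher and 23 lower, against 18.6% of all genes tested. The groups did not overlap for 44 lincRNAs (22.2%), 18 higher and 26 lower, against 25.2%. Over the 198, 95 log2 fold changes were above 0 and 103 below, with a median of -0.02, against -0.01 for all genes tested. With FPKM rescaled to TPM both medians were higher alike, at 0.006 and 0.02.

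**Figure D3:**
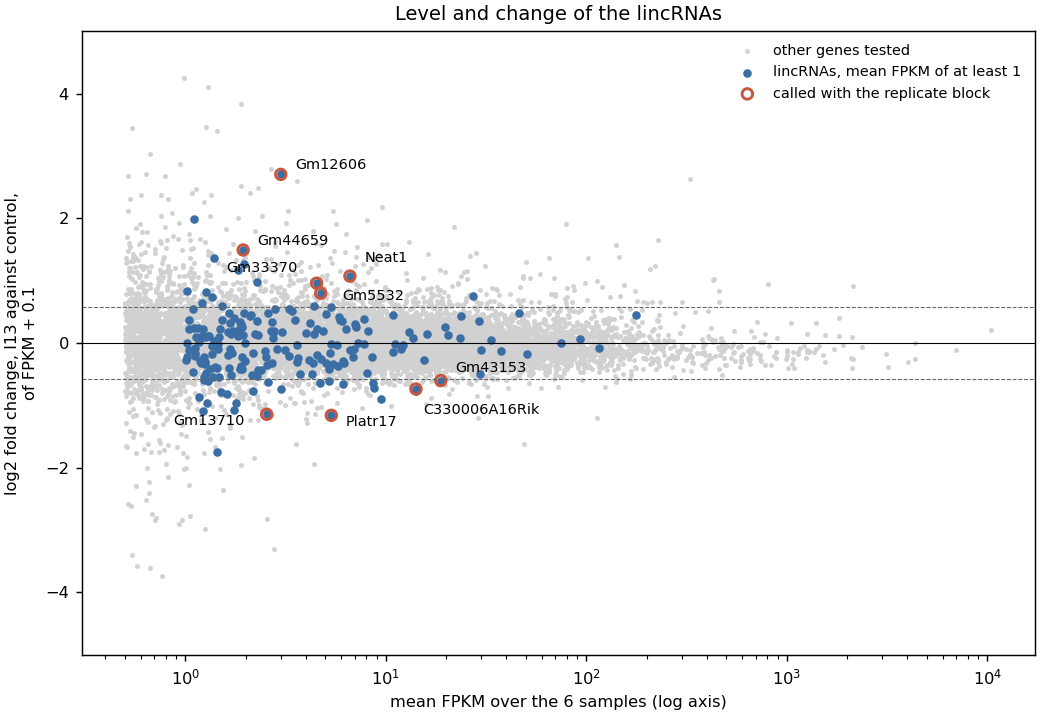
log2 fold change of FPKM + 0.1, I13 against control, plotted over the mean FPKM of the 6 samples (log axis) for the 198 lincRNAs (blue) and the other genes tested (grey), with dashed lines at the fold threshold of 0.58 and red circles around the 9 lincRNAs called with the replicate block. Gm12606 stands highest of the lincRNAs at 2.70, most of them lie below 10 FPKM, and those called lower include C330006A16Rik and Gm43153 above 10 FPKM.

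For many lincRNAs, a larger share of the spread over the 6 samples lay between replicate numbers than between control and I13. Of the summed squares of log2(FPKM + 0.1) over the 198, 47.3% lay between replicate numbers, 33.9% between control and I13, and 18.8% was left. For all genes tested these shares were 44.2%, 27.7% and 28.1%. Over 50% of a gene's squares lay between replicate numbers in 88 of the 198 lincRNAs (44.4%) and in 42.3% of all genes tested, and between conditions in 49 lincRNAs (24.7%) and in 28.9% of all genes. The replicate numbers have 2 degrees of freedom and the condition has 1, so equal shares are not equal effects. The deviations of same-numbered samples from their group means correlated across the 198 lincRNAs at 0.51, 0.52 and 0.38 for numbers 1, 2 and 3, and across all genes tested at 0.15, 0.30 and 0.22. Genes are not independent replicates, and these correlations are a description.

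Gm26809 showed this pattern most plainly among the abundant ones. It measured 45.3, 7.93 and 27.0 FPKM in the controls and 48.7, 12.1 and 34.3 FPKM after I13. Samples 1 of both groups were the highest and samples 2 the lowest, and 95.6% of its squares lay between replicate numbers against 3.30% between conditions. 4930558J18Rik repeated its levels closely, with 1.51, 1.99 and 0.885 FPKM in the controls and 1.38, 2.01 and 0.919 FPKM after I13, and 99.3% of its squares lay between replicate numbers. Gm12505, the one lincRNA with a sample listed at 0, measured 2.83, 0 and 0.7496 FPKM and 6.75, 0.315 and 1.13 FPKM, so that samples 1 were again the highest. These 3 genes were chosen after their values were seen. At the other end, 97.5% of the squares of Gm12606 and 96.9% of those of C330006A16Rik lay between conditions.

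**Figure D4:**
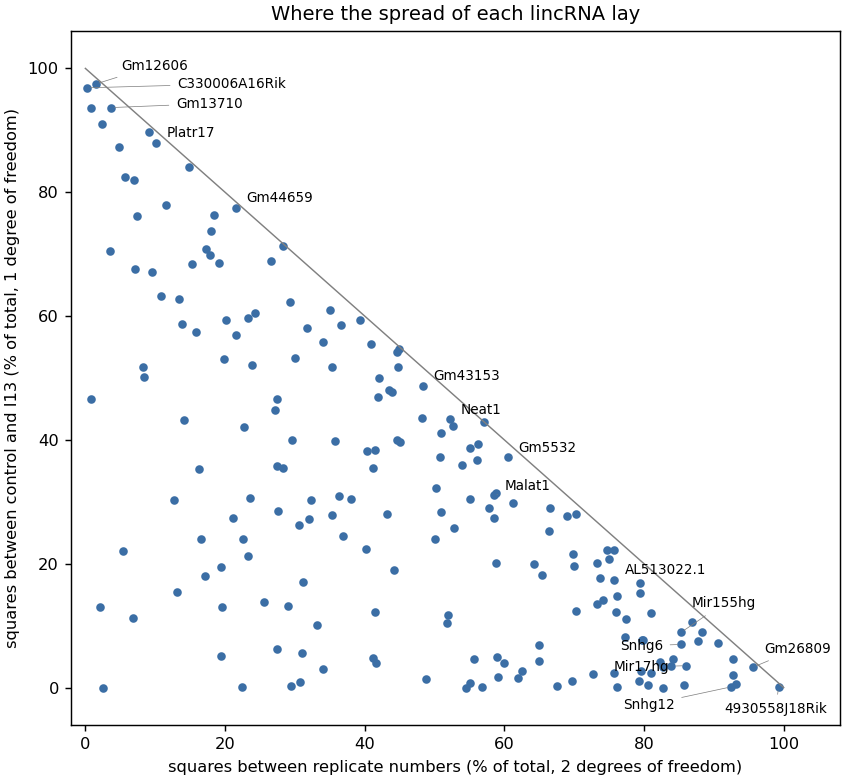
Share of each lincRNA's squares of log2(FPKM + 0.1) that lay between replicate numbers (x axis, %) and between control and I13 (y axis, %), 1 point per gene for all 198, with the grey line where both add to 100%. Gm12606, C330006A16Rik and Gm13710 lie at the upper left, Neat1, Gm43153 and Gm5532 near the middle of the line, and Gm26809, Snhg12 and 4930558J18Rik at the lower right.

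The level threshold cut through a continuous range. The lowest lincRNAs inside it were AC135672.1 with a mean of 1.00 FPKM over the 6 samples and AC116680.1 with 1.02 FPKM, and the next outside were Gm12784 with 0.996 FPKM and Gm43254 with 0.986 FPKM. In both genes outside, 2 or more controls were above 1 FPKM and every I13 sample was below it. Of the 198, 85 had a mean from 1 to under 2 FPKM, 52 from 2 to under 5, 33 from 5 to under 10, 23 from 10 to under 50 and 5 of at least 50. In 136 of them every sample was at 1 FPKM or above. Because the mean included both groups, a lincRNA could enter through one group alone, and 11 had a control mean and 10 an I13 mean below 1 FPKM, Gm12606 among the former. All 198 passed the filter of the limma comparison, since it asked for a mean of only 0.5 FPKM.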

How the data were processed

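RNA from 3 control and 3 I13 samples was made into poly(A)-selected, stranded libraries. The authors deposited FPKM values per gene, 1 column per sample, and no other scaling is stated. The submitters' processing notes name Trimmomatic, HISAT2, Cufflinks and HTSeq, with no versions, and the human build hg38, and the labels give a human organism. All genes in the table are mouse genes, and they were used as such, with the biotype the table gives. Strand settings of the counting are not given in the sources used here, so overlapping transcripts may share reads. No mouse genome was used here, and no coordinates or sequences are given.

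Lengths and whole fragments were recovered from the FPKM values of 22412 genes, within a tolerance of 1e-05 fragments or 2e-07 of the largest count. Tests were made in 12163 genes with limma (version 3.58.1, R version 4.3.3), applied to log2(FPKM + 0.1) with a mean-variance trend in eBayes. The thresholds are those of the study, which does not name its test. The fits were tested on simulated data. Replicate numbers come from the labels, which do not say what a number marks. They were treated as pairs because every same-number correlation over all genes tested was above 0.1.

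The lincRNAs, gene lists and tests were chosen with earlier results of these data known. The lincRNAs named are Gm12606, those called in either fit, the 6 most abundant, the 6 highest and 6 lowest log2 fold changes without overlap of the groups, those with a published name, and the 2 on each side of the level threshold. From the other lists, genes with an adjusted p below 0.05, or else the 2 with the lowest p, are named. Alternatives were other pseudocounts, filters, scalings, no trend, voom, the replicate block and leaving out samples. Leaving out a pair in the fit with the block was added after seeing the data. The plots were made in matplotlib 3.10.9.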

Additional observations from a re-analysis of the deposited data

How the results depend on the processing

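The replicate block changed the calls more than any other setting tried. It moved the lincRNAs called higher from 1 to 5 and those called lower from 0 to 4, and voom with the block gave 8 and 10. All genes called went from 5 to 230 with the block and to 503 with voom and the block. The lincRNAs at an unadjusted p below 0.05 went from 41 to 69 of 198 with the block. All genes at that p went from 2266 to 3409 of 12163. Of the counts of calls, the other settings with all samples moved only that over all genes by more than 1.5 times, to 2 with a pseudocount of 0.01 or median-ratio scaling and to 8 without a filter or without the trend. A pseudocount of 1 also moved the lincRNAs at a log2 fold change of 0.58 or more from 17 higher and 24 lower to 10 and 9. Leaving out samples, singly or as a pair with the block, gave between 0 and 2 lincRNAs called higher, between 0 and 83 genes called in all, between 29 and 72 lincRNAs at an unadjusted p below 0.05, and between 57 and 72 without overlap. Over the same fits, between 1478 and 3160 of the 12163 genes tested had an unadjusted p below 0.05. Absence of overlap was not counted over all genes tested when samples were left out. Fewer samples per group make separation of the groups easier. For the other counts the cause was not tested.

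The log2 ratio of the summed lincRNA FPKM was 0.039. It turned to -0.013 without AL513022.1, to -0.012 without control replicate 2 and to -0.006 without I13 replicate 1, within a range of -0.012 to 0.088 when 1 sample was left out. Of the 37 named lincRNAs, 24 kept their direction in every setting. The log2 fold changes of the other 13 turned in at least one of them. When single samples were left out, they lay between -0.195 and 0.022 for Gm45836, -0.027 and 0.190 for Gm28187, -0.133 and 0.120 for Gm16194, -0.104 and 0.174 for Mir142hg, -0.041 and 0.156 for 1700020I14Rik, -0.149 and 0.073 for Epb41l4aos, and -0.299 and 0.162 for Snhg12. They lay between -0.227 and 0.191 for Snhg20, -0.033 and 0.491 for Mir17hg, -0.177 and 0.222 for Trp53cor1, -0.947 and 0.028 for Mir155hg and -0.638 and 0.019 for AC135672.1. With the block and without replicate number 1, the turned values were -0.016 for Gm28187, -0.116 for Mir142hg, -0.061 for 1700020I14Rik, 0.131 for Epb41l4aos, 0.073 for Snhg12, 0.388 for Snhg20 and -0.022 for Mir17hg. Without number 2 they were -0.010 for Gm28187, -0.088 for Gm16194, 0.004 for Snhg12, -0.036 for Bvht and -0.321 for Trp53cor1, and without number 3 they were 0.104 for Gm45836 and -0.036 for Trp53cor1. Epb41l4aos, Snhg12 and Snhg20 also turned with TPM, to 0.014, 0.007 and 0.012, where the median of all genes tested moved by a like amount, from -0.005 to 0.024. Fragments were few for some lincRNAs, as 3 of the 198 had under 10 per sample on average and 73 had at least 100. The part of depth in the turned directions was not tested.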
